A study of Saccharomyces cerevisiae with 9 samples.

Results

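The mitochondrial ATP synthase is the rotary enzyme of the inner membrane that makes ATP from the proton gradient of the respiratory chain. Its transcripts were followed here through 10 nuclear genes, ATP1, ATP2, ATP3, ATP4, ATP5, ATP7, ATP14, ATP15, ATP16 and ATP20, which were taken from the deposited table by gene symbol. They are 10 of the 7122 genes of the table, each symbol matched 1 row, and all 10 were among the 6083 genes that passed the filter on low counts. The libraries came from Saccharomyces cerevisiae of the prototrophic CEN.P.K strain, grown to log phase in minimal medium with 2% glucose. There were 3 groups of 3 libraries. They are the wild type (WT) and a pair of double deletions, ect1Δ pct1Δ and cpt1Δ ept1Δ. Ect1 and Pct1 are the enzymes that activate phosphoethanolamine and phosphocholine with CTP in the CDP-ethanolamine and CDP-choline routes to phospholipids, and Cpt1 and Ept1 are the transferases that complete these routes. The comparisons ask which transcripts differ when either step is missing.

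In the enzyme, the F1 head carries the catalytic sites on the α (Atp1) and β (Atp2) subunits, and a central stalk of γ (Atp3), δ (Atp16) and ε (Atp15) turns inside it. A peripheral stalk of subunits b (Atp4), OSCP (Atp5), d (Atp7) and h (Atp14) holds the head still against the membrane sector Fo, and subunit g (Atp20) sits in Fo where pairs of enzymes meet and helps shape the cristae. The proton channel itself, subunits a and c, and the small subunit 8 are made from the mitochondrial genome. Yeast on glucose mainly ferments, and genes of respiration are held down by glucose and activated by the Hap2, Hap3, Hap4 and Hap5 complex, which binds CCAAT boxes.

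The stretches upstream of the 10 genes are shown because each holds the letters of this box, CCAAT. Whether the box has a part in their levels was not tested. The window read for each gene ran from 350 to 51 bases before its start codon on the gene's own strand. The 50 bases next to the start codon, which in most yeast genes hold the transcript leader, were left out. Sequences are those of the RefSeq genome of build R64, which is the S288C strain and not CEN.P.K. Each line gives 30 bases, 5′ to 3′ on the gene's strand, with the match in capitals. The match is ACCAATNA where the window holds it and otherwise the CCAAT nearest to the start codon, read as ATTGG where it lies on the opposite strand.
ATP1: atagctctttcaATTGGtcttattagattg
ATP2: caggacaggccaATTGGataaattttgcaa
ATP3: cgtgatggagaACCAATGAgcggcgagtaa
ATP16: atagatgcccagCCAATcaaagcgcattat
ATP15: cttttatacgaACCAATGAaatttgatcct
ATP4: atcaatattgaACCAATCAcgacgcttttt
ATP5: caatttcaaacgCCAATtgttaactttgtg
ATP7: gtaaaagatacACCAATTAccacttgctgc
ATP14: gccatacacgaACCAATTAtgcatcataaa
ATP20: ttcttattcctgATTGGctgaaagaaaata
The stretches lie at chrII:36774-36803 for ATP1, chrX:647413-647442 for ATP2, chrII:315368-315397 for ATP3, chrIV:442853-442882 for ATP16, chrXVI:29934-29963 for ATP15 and chrXVI:599689-599718 for ATP20 on the plus strand. On the minus strand they lie at chrXVI:408916-408945 for ATP4, chrIV:1058960-1058989 for ATP5, chrXI:408149-408178 for ATP7 and chrXII:722553-722582 for ATP14.

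All 10 windows held CCAAT on either strand, 15 matches in all, against 42.9% of the windows of 6001 nuclear protein-coding genes. The longer ACCAATNA, which contains CCAAT and is closer to the box the Hap complex is known to bind, was found in 5 of the 10 (ATP3, ATP4, ATP7, ATP14 and ATP15), against 5.07% of all windows. The 5 ACCAATNA matches lay 130 to 194 bases before the start codon and all were on the gene's own strand. For comparison, CCAAT was found in 8 of 9 windows of complex III genes, 7 of 8 of complex IV and 4 of 15 of the vacuolar ATPase, and ACCAATNA in 2, 4 and 0 of these. TTACCCG, the letters bound by the general regulator Reb1, was found upstream of ATP4, ATP5 and ATP14 and in 8.38% of all windows. AGGGG, the stress response element, was found in 4 windows (ATP2, ATP14, ATP15 and ATP16) and in 22.9% of all. The ATP2 window shares 220 of its 300 bases with the annotated gene YJR120W, and both CCAAT matches of ATP2 lie in that overlap. These matches are not separate sites: they share bases in the string CCAATTGG, which reads the same on either strand. A match is a string of letters and was not tested as a binding site.

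**Figure D1:**
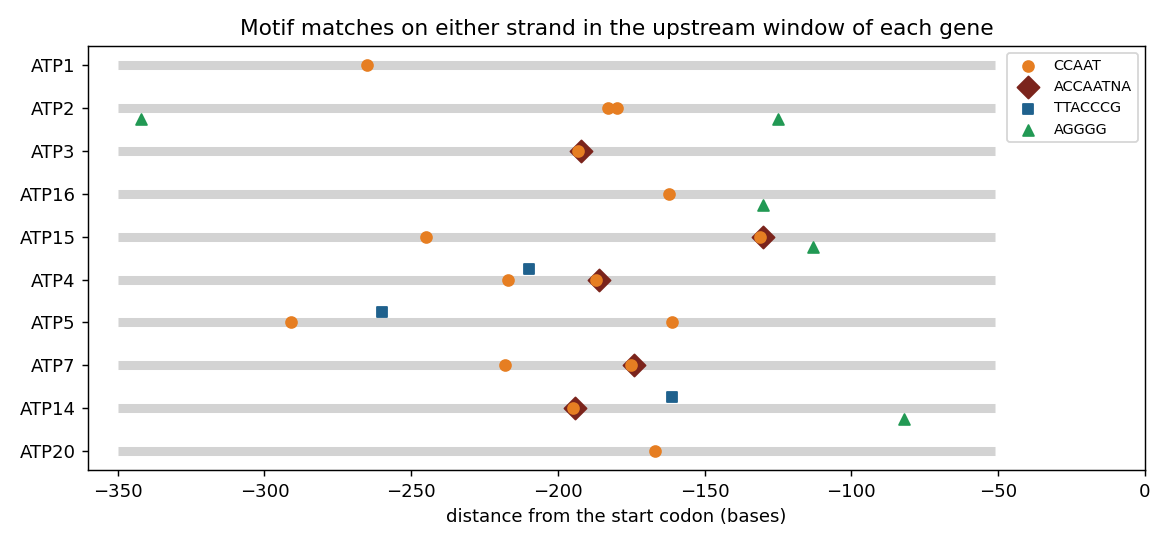
Matches of 4 motifs in the upstream windows of the 10 genes. The horizontal axis is the distance from the start codon in bases, grey bars are the windows from 350 to 51 bases, and symbols mark the middle of each match on either strand. Every gene has at least 1 CCAAT match, and the 5 ACCAATNA matches sit between 130 and 194 bases.

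Whole windows are given for the genes with the largest log2 fold changes in ect1Δ pct1Δ, ATP20 and ATP16, and for the one with the smallest, ATP4, with CCAAT and ACCAATNA on either strand in capitals.
ATP20: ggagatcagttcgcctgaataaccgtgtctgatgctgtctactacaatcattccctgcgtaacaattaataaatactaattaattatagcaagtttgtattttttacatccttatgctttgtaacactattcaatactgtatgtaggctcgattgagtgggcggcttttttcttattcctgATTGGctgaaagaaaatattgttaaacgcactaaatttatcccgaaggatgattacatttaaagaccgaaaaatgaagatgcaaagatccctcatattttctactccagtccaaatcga
ATP16: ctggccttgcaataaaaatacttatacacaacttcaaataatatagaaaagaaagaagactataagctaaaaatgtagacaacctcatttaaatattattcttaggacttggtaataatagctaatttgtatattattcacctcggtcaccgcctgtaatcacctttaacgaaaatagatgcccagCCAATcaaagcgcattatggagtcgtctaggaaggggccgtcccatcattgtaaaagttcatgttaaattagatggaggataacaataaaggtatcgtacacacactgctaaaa
ATP4: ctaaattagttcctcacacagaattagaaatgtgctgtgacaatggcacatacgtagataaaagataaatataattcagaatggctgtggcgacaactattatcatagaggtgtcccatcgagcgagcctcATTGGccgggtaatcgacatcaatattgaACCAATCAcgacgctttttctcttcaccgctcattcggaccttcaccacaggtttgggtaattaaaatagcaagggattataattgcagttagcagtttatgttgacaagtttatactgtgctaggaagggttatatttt
These windows are chrXVI:599520-599819 and chrIV:442679-442978 on the plus strand and chrXVI:408795-409094 on the minus strand.

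The total count per library was 5669951 to 11793688, and the 10 genes had 487 to 17423 counts each. ECT1 and PCT1 stood at no more than 0.74 FPKM in any ect1Δ pct1Δ library, and CPT1 and EPT1 at no more than 0.51 in any cpt1Δ ept1Δ library, where WT libraries had 103 to 201, so these genes were low where the labels have them deleted. The series' design text names other knockouts, PAH1 and DGK1, which the sample labels do not give. Both were expressed in the deletion strains, PAH1 at 18.9 ± 2.11 and 20.66 ± 1.66 FPKM in ect1Δ pct1Δ and cpt1Δ ept1Δ, beside 20.86 ± 1.67 in WT, and DGK1 at 123.4 ± 4.87 and 126.9 ± 0.885, beside 123.4 ± 4.82. Groups were taken from the sample labels. FPKM, as deposited, scales a count by gene length and by the total count of the library. On the first principal component, with 23% of the variance, WT replicate 3 lay at 13.01, where the rest of WT was at or below -1.65. On the same component ect1Δ pct1Δ replicate 2 lay at 7.33, where the rest of that strain was at or below -4.71. Below, the libraries that stand apart are those named for this component. On the second component, with 17.3%, WT replicate 2 lay at 12.26, where the rest of WT was at or below 5.19. Nothing in the labels says that replicates came from separate cultures, so every p-value below rests on the scatter of these libraries alone, and that scatter may be technical. In bulk RNA, fewer cells that express a gene and less RNA per cell cannot be told apart.

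In WT the 10 transcripts were abundant and of similar level, within 3.67-fold of each other per length. ATP2 was the highest at 883.4 ± 55.2 FPKM (mean ± SD, n = 3 here and below), followed by ATP15 at 627.4 ± 22.0, ATP7 at 502.1 ± 12.8 and ATP5 at 482.5 ± 12.7. ATP1 (423.4 ± 11.8), ATP4 (412.8 ± 9.96) and ATP16 (405.9 ± 11.7) formed a middle group, with ATP3 (357.8 ± 7.93), ATP14 (268.1 ± 14.7) and ATP20 (240.7 ± 29.8) below. The WT libraries of ATP7 and ATP5 overlapped, as did those of ATP1 and ATP4, ATP4 and ATP16, and ATP14 and ATP20, so the order within these pairs is not resolved. The others in this order did not overlap with their neighbour. ATP2 ranked 257 and ATP20 ranked 730 among the 7122 genes by mean FPKM in WT. The gene lengths behind these FPKM values are coding lengths without UTRs, 189 bases for ATP15 and 1638 for ATP1.

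The order was the same in the deletion strains except that ATP16 stood before ATP4. Summed over the 10 genes, FPKM was 4604 ± 62.1 in WT. The sum was 5118 ± 84.3 for ect1Δ pct1Δ and 4866 ± 67.8 for cpt1Δ ept1Δ. ATP2 took 19.2 ± 1.11% of this sum in WT, 18.9 ± 0.304% with ECT1 and PCT1 deleted and 18.9 ± 0.285% with CPT1 and EPT1 deleted. ATP20 took 5.23 ± 0.641, 5.73 ± 0.231 and 5.59 ± 0.133% in the same order. Among the 10, only ATP4 had shares that did not overlap between WT and ect1Δ pct1Δ, and shares were not tested. ATP4 took 8.85 to 9.13% in the WT libraries and 8.41 to 8.69% in those of ect1Δ pct1Δ. The cpt1Δ ept1Δ libraries had ATP4 at 8.57 to 8.89%, overlapping with both.

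In ect1Δ pct1Δ all 10 genes were above WT by small amounts, and none passed the test by itself. Of the genes tested, 51.2% had a log2 fold change above 0. The median log2 fold change of the 10 was 0.16, beside 0.00 over all 6083 genes tested. By edgeR's quasi-likelihood test with Benjamini-Hochberg adjustment 0 of the 10 passed an adjusted p of 0.05, which 0.46% of all genes did, and their adjusted p-values were 0.268 to 0.884. At an unadjusted p below 0.05 there were 8 of the 10, beside 6.61% of all genes in either direction and 4.14% in the direction of higher. DESeq2 and limma called 0 of the 10 too and put 7 and 8 at an unadjusted p below 0.05. The members were chosen with earlier results of these data known, in which genes of oxidative phosphorylation were higher, so these counts are a description.

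Among the F1 subunits, ATP1 (YBL099W, chromosome II, 37053 to 38690), which encodes α, stood at 420.8, 436.4 and 413.1 FPKM in WT replicates 1, 2 and 3 and at 487.9, 484.9 and 457.6 in ect1Δ pct1Δ. ATP2 (YJR121W, chromosome X, 647607 to 649142), for the catalytic β subunit, stood at 880.4, 940.0 and 829.8 in WT and at 976.5, 961.7 and 958.6 in ect1Δ pct1Δ. In both genes every ect1Δ pct1Δ library was above every WT library. The edgeR log2 fold change was 0.16 ± 0.05 (SE) for ATP1 and 0.12 ± 0.05 for ATP2, with Benjamini-Hochberg adjusted p-values of 0.367 and 0.678. YBL100C overlaps ATP1, so their reads may have been exchanged if strand was not used in counting.

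Of the central stalk, ATP3 (YBR039W, chromosome II, 315575 to 316510), for γ, stood at 364.1, 360.4 and 348.9 FPKM in WT and at 414.9, 401.9 and 389.4 in ect1Δ pct1Δ. ATP16 (YDL004W, chromosome IV, 443029 to 443511), for δ, stood at 400.6, 397.8 and 419.3 in WT and at 470.2, 487.6 and 452.7 in ect1Δ pct1Δ. Neither gene's libraries overlapped between these groups. ATP16 had the lowest p of the 10 in this comparison, with an edgeR log2 fold change of 0.21 ± 0.06, which is 1.15-fold with an unadjusted 95% interval of 1.06 to 1.26, and a Benjamini-Hochberg adjusted p of 0.268. ATP3 was at 0.16 ± 0.05 by the same edgeR fit (Benjamini-Hochberg adjusted p = 0.367). ATP15 (YPL271W, chromosome XVI, 30079 to 30267), for ε, overlapped between the groups, with 602.1, 640.3 and 640.0 FPKM in WT and 636.8, 713.7 and 678.3 in ect1Δ pct1Δ.

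Of the peripheral stalk, ATP7 (YKL016C, chromosome XI, 407465 to 407989), for subunit d, stood at 489.8, 515.4 and 501.1 FPKM in WT and at 574.1, 562.6 and 553.5 in ect1Δ pct1Δ. ATP5 (YDR298C, chromosome IV, 1058176 to 1058814), for OSCP, which ties the stalk to the head, stood at 471.9, 479.1 and 496.6 in WT and at 519.6, 546.9 and 527.1 in ect1Δ pct1Δ. Every ect1Δ pct1Δ library was above every WT library in both. Their edgeR log2 fold changes were 0.16 ± 0.06 and 0.13 ± 0.05, with Benjamini-Hochberg adjusted p-values of 0.461 and 0.650. ATP14 (YLR295C, chromosome XII, 721999 to 722373), for subunit h, stood at 282.7, 253.4 and 268.3 in WT and at 312.1, 285.5 and 308.9 in ect1Δ pct1Δ. Its log2 fold change was 0.16 ± 0.07, and YLR294C overlaps it, with the same limit on its counts as for ATP1. ATP4 (YPL078C, chromosome XVI, 408010 to 408744), for subunit b, had the smallest difference, with 401.8, 415.2 and 421.3 in WT against 436.7, 451.2 and 422.7 in ect1Δ pct1Δ. The highest WT and the lowest ect1Δ pct1Δ library of ATP4 nearly met. Its log2 fold change was 0.08 ± 0.06, with an unadjusted 95% interval of -0.04 to 0.19.

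ATP20 (YPR020W, chromosome XVI, 599870 to 600217), for subunit g at the interface between enzymes, had the largest difference. It stood at 223.8, 223.1 and 275.1 FPKM in WT and at 306.4, 296.2 and 276.7 in ect1Δ pct1Δ. WT replicate 3 lay close to the lowest ect1Δ pct1Δ library and well above the other WT libraries. The edgeR log2 fold change was 0.28 ± 0.08, which is 1.22-fold with an unadjusted 95% interval of 1.08 to 1.38, and its Benjamini-Hochberg adjusted p was 0.330. Without WT replicate 3 it was 0.39, and ATP20 then passed (edgeR, Benjamini-Hochberg adjusted p = 0.00883), so a single library decides its call. The adjusted p was 0.0240 without both libraries that stand apart, a setting chosen after the data were seen.

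In FPKM the ect1Δ pct1Δ libraries lay above all WT libraries in 9 of the 10 genes, all but ATP15, beside 6.79% of all tested genes. In CPM scaled by TMM, which corrects for differences in library makeup, this held for 7 of the 10 beside 5.92%, since ATP4 and ATP20 then overlapped as well.

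**Figure D2:**
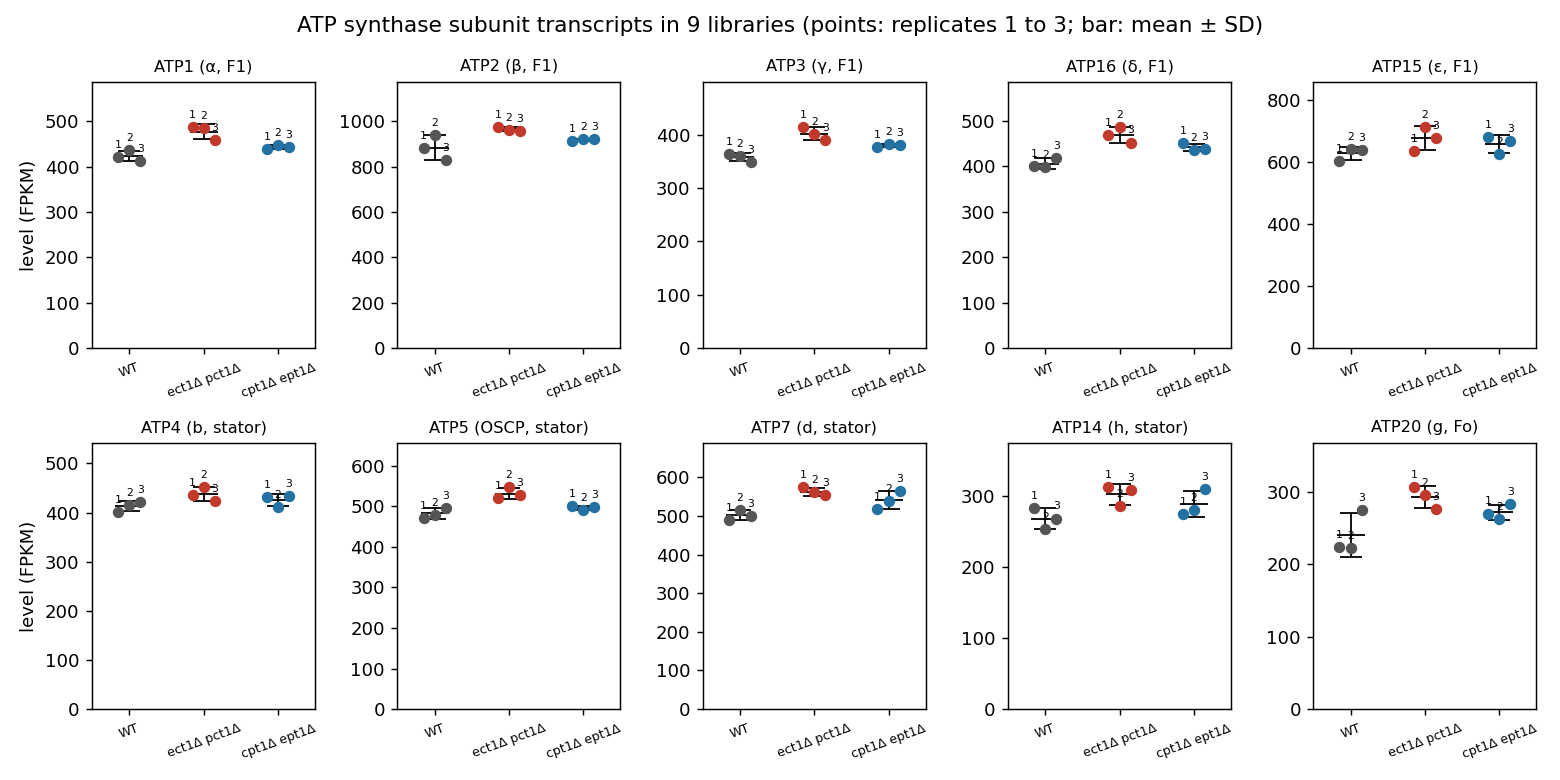
Level of each of the 10 transcripts in FPKM (vertical axis, from 0) in the 3 groups. Points are libraries with their replicate number, bars the mean and SD of 3 libraries. Differences are small beside the level of each gene, the ect1Δ pct1Δ libraries lie highest in most panels, and WT replicate 3 stands above the other WT libraries for ATP20.

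In cpt1Δ ept1Δ all 10 genes were again above WT on average, by less. Of all tested genes 49.2% had a log2 fold change above 0. The median of the 10 was 0.08, beside 0.00 over all genes. By edgeR with Benjamini-Hochberg adjustment 0 of the 10 passed, beside 0.132% of all genes, with adjusted p-values of 0.938 and above. At an unadjusted p below 0.05 there were 2 of the 10, ATP16 and ATP20, beside 5.28% of all genes, and DESeq2 had 0 and limma 3. The libraries of this comparison share the WT libraries with the one before, so the common direction is not independent.

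ATP16 stood at 451.5, 437.0 and 439.2 FPKM in cpt1Δ ept1Δ, all above WT, with a log2 fold change of 0.13 ± 0.06 (edgeR, Benjamini-Hochberg adjusted p = 0.938). ATP20 stood at 270.3, 262.7 and 283.1, around WT replicate 3 and above the other WT libraries, with a log2 fold change of 0.18 ± 0.08 and the same adjusted p of 0.938 by edgeR. ATP1 (438.5, 448.2 and 442.5 FPKM), ATP3 (377.1, 382.6 and 380.0) and ATP7 (519.1, 538.2 and 565.0) also lay above all WT libraries. That made 4 of the 10, in FPKM and in CPM alike, beside 5.26% and 5.24% of all tested genes. ATP2 stood at 913.1, 922.5 and 921.7 and ATP5 at 500.1, 491.1 and 497.4, both overlapping with WT. ATP4 (431.8, 411.4 and 432.8), ATP14 (274.8, 280.7 and 309.3) and ATP15 (681.4, 627.1 and 666.5) overlapped with WT. The smallest log2 fold changes were those of ATP5 and ATP4, 0.04 ± 0.05 and 0.04 ± 0.06. The unadjusted 95% interval of ATP5 ran from -0.07 to 0.16.

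The direct comparison of the strains tests whether the effects of the deletions differ. All 10 genes were lower in cpt1Δ ept1Δ than in ect1Δ pct1Δ, with a median log2 fold change of -0.07 beside 0.00 over all genes, and 48.4% of all tested genes lay above 0. By edgeR with Benjamini-Hochberg adjustment 0 of the 10 passed, beside 0.197% of all genes, each with an adjusted p of 0.999, and 0 were at an unadjusted p below 0.05, beside 4.72%. DESeq2 called 0 and had 0 at an unadjusted p below 0.05, and limma called 0 and had 2. The values ran from -0.03 for ATP4 to -0.10 for ATP20, whose unadjusted 95% interval was -0.27 to 0.07. In CPM the cpt1Δ ept1Δ libraries lay below all ect1Δ pct1Δ libraries in 4 genes, ATP1, ATP2, ATP3 and ATP5, beside 5.59% of all tested genes, and in FPKM also in ATP16, which made 5 beside 6.1%. The direction of ATP4 and ATP15 was not stable: without ect1Δ pct1Δ replicate 2 they stood at 0.01 and 0.02. No difference between the strains was detectable for any of the 10 by this test.

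**Figure D3:**
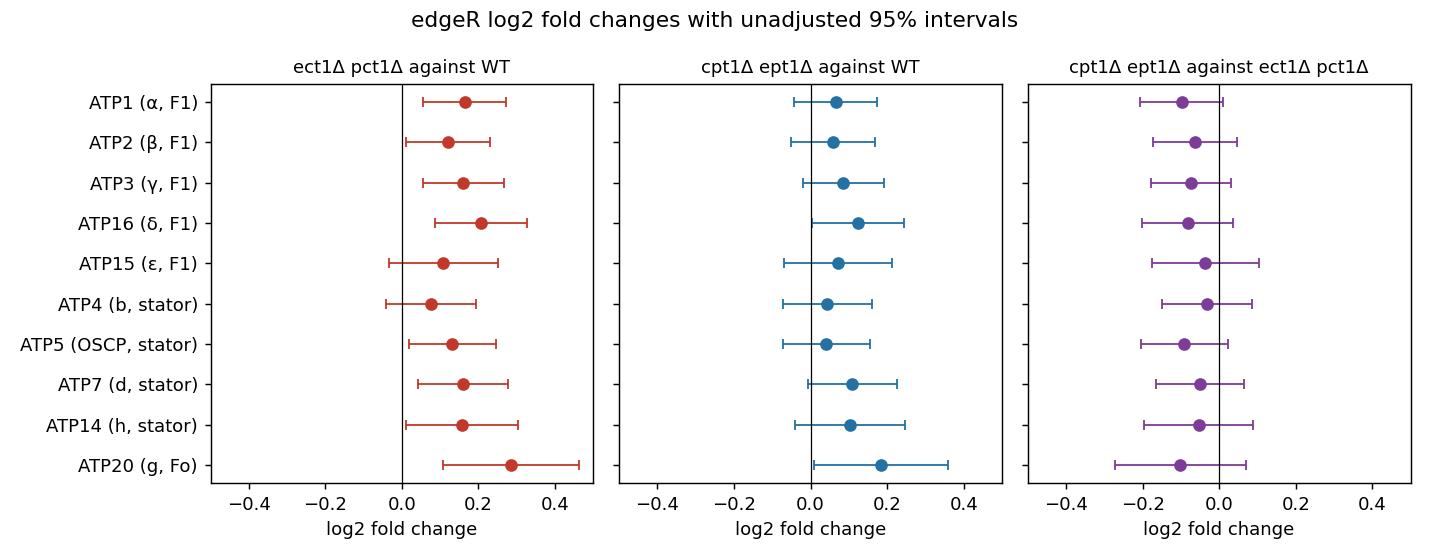
edgeR log2 fold changes of the 10 genes (horizontal axis) in the 3 comparisons. Points are estimates, bars unadjusted 95% intervals, and the vertical line is no difference. In the left panel 8 intervals lie above 0, in the middle panel those of ATP16 and ATP20 do, and in the right panel every interval includes 0.

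Per library, the mean log2 CPM of the 10 genes, each centred on its own mean over the 9 libraries, was -0.11, -0.09 and -0.04 in WT replicates 1, 2 and 3. The ect1Δ pct1Δ libraries were at 0.07, 0.12 and 0.04, and those of cpt1Δ ept1Δ at 0.00, -0.02 and 0.05. The WT libraries were the lowest of all, and cpt1Δ ept1Δ replicate 3 lay within the range of ect1Δ pct1Δ. Both libraries that stand apart on the first component, WT replicate 3 and ect1Δ pct1Δ replicate 2, were the highest of their groups. The median log2 fold change of the 10 in ect1Δ pct1Δ was 0.14 when both were left out. Cells past log phase were looked for through 20 genes of the diauxic shift and stationary phase. Their summed CPM was 1014 to 1079 in the WT libraries. It was 1181 to 1241 for ect1Δ pct1Δ and 1101 to 1180 for cpt1Δ ept1Δ, and most of it was CIT2, a peroxisomal citrate synthase. Without CIT2 the sums were 284.5 to 289.8, 294.8 to 337.2 and 292.1 to 331.2, in the same order. None of the 20 was at 0 in all libraries. Of the 17 that passed the filter, 15 had a positive log2 fold change in ect1Δ pct1Δ, beside 51.2% of all genes tested, with a median of 0.23. By edgeR 0 were called, beside 0.46%, and 6 were at an unadjusted p below 0.05, beside 6.61%. DESeq2 and limma called 0 and had 5 each at an unadjusted p below 0.05. In cpt1Δ ept1Δ 13 of the 17 were positive, beside 49.2% of all genes tested, with a median of 0.07. There edgeR called 0, beside 0.132%, and put 2 at an unadjusted p below 0.05, beside 5.28%. In that strain DESeq2 and limma called 0 too and had 2 and 1 at an unadjusted p below 0.05. SIP18, SPG1 and SPG4, known from stationary or stressed cells, had at most 12 counts in any library. The log2 fold changes of the 17 in ect1Δ pct1Δ ran from -0.18 ± 0.11 for ICL1 to 0.60 ± 0.28 for HXK1. SUC2 was at -0.006 ± 0.071, HXT5 at 0.03 ± 0.15, ADH2 at 0.07 ± 0.15 and ACS1 at 0.07 ± 0.14. The heat shock gene HSP12 was near the top at 0.59 ± 0.25 (edgeR, Benjamini-Hochberg adjusted p = 0.650). Its mean CPM was 8.43 (WT), 12.7 (ect1Δ pct1Δ) and 10.5 (cpt1Δ ept1Δ). The part of growth phase in the ATP synthase values was not tested.

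The other respiratory complexes were at a like distance from WT. In ect1Δ pct1Δ the median log2 fold change was 0.16 for 8 measured nuclear genes of complex III and 0.17 for 8 of complex IV, all 16 of which were positive, beside 0.16 for the ATP synthase. In cpt1Δ ept1Δ the medians were 0.11 and 0.10, with 8 of 8 and 7 of 8 positive, beside 0.08 for the ATP synthase. The vacuolar ATPase, a proton pump of related build that acidifies the vacuole, had medians of -0.02 and 0.00 over 15 genes. Of these 6 and 7 were positive, beside 51.2% and 49.2% of all genes tested. By edgeR with Benjamini-Hochberg adjustment 0 genes of these 3 lists passed in either comparison, beside 0.46% and 0.132% of all genes tested. At an unadjusted p below 0.05 the ect1Δ pct1Δ comparison had 5, 6 and 0, beside 6.61% of all genes. The other had 3, 0 and 0, beside 5.28%. DESeq2 and limma called 0 as well, with 4, 5 and 0 and 6, 7 and 0 at an unadjusted p below 0.05 in the first, and 2, 0 and 0 and 4, 0 and 0 in the second. Differences between these lists were not tested. WT replicate 3 and ect1Δ pct1Δ replicate 2 were also the highest of their groups for complex IV and the vacuolar ATPase. On the centred scale they were at 0.04 and 0.15 for complex IV, where the other WT libraries were at -0.138 and -0.145. For the vacuolar ATPase they were at 0.08 and 0.09.

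**Figure D4:**
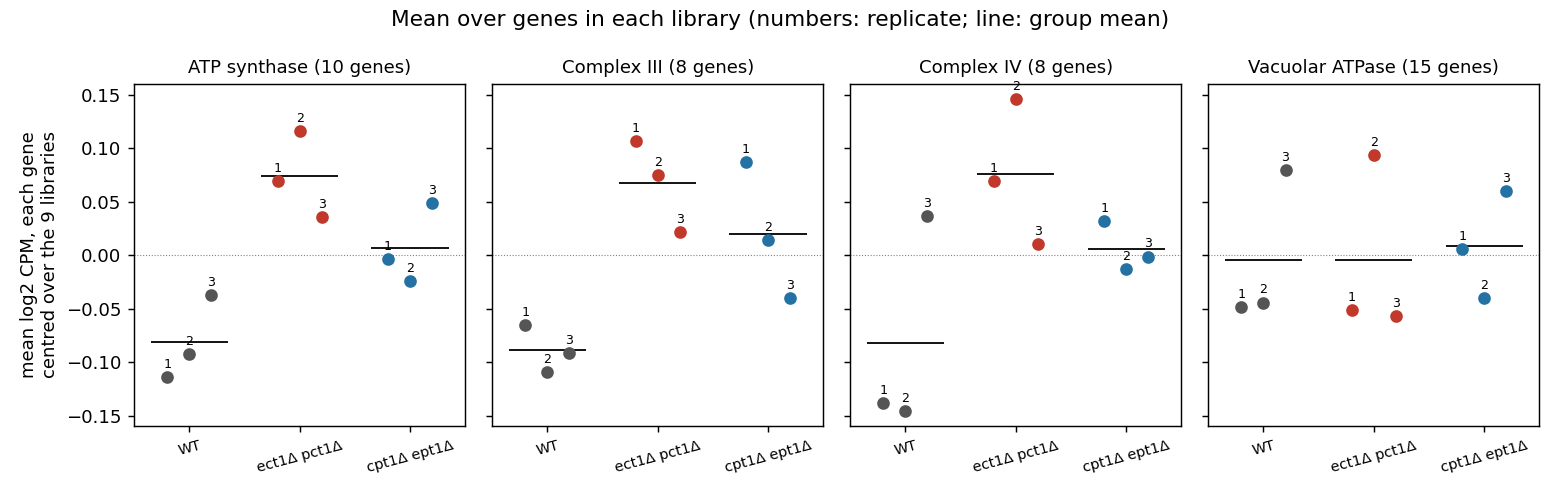
Mean centred log2 CPM (vertical axis) of 4 sets of genes in each library. Points are libraries with their replicate number and lines are group means. The ATP synthase and complex III have all WT libraries below those of ect1Δ pct1Δ. The groups overlap for complex IV, where WT replicate 3 (0.04) lies above ect1Δ pct1Δ replicate 3 (0.01), and for the vacuolar ATPase. In the panel of the vacuolar ATPase replicate 3 of WT (0.08) and replicate 2 of ect1Δ pct1Δ (0.09) are highest.

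The rest of the ATP synthase pathway was taken from a list of 26 further genes, of which 23 passed the filter. By edgeR with Benjamini-Hochberg adjustment 1 was called in ect1Δ pct1Δ and 0 in cpt1Δ ept1Δ, beside 0.46% and 0.132% of all genes tested. At an unadjusted p below 0.05 there were 4 and 1, beside 6.61% and 5.28%. DESeq2 and limma also called 1 and 0, with 4 and 6 at an unadjusted p below 0.05 in the first comparison and 0 and 2 in the second. The medians were 0.10 and 0.05, with 18 and 16 of 23 positive, beside 51.2% and 49.2% of all genes tested. The called gene is STF2 (YGR008C, chromosome VII, 508110 to 508364), whose product was described as stabilising the inhibitor of the ATPase and which also protects cells from drying. Its FPKM in WT was 156.9, 178.8 and 140.5. The ect1Δ pct1Δ libraries had 272.8, 279.3 and 279.4, above all others, and cpt1Δ ept1Δ had 164.7, 158.3 and 179.1, overlapping with WT. STF2 rose in ect1Δ pct1Δ by a log2 fold change of 0.80 ± 0.09 (edgeR, Benjamini-Hochberg adjusted p = 2.90e-05). It lies beside the deleted ECT1 (506969 to 507940), and the part of that position was not tested.

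The 4 remaining nuclear subunits, all of Fo, had the same sign as the 10. ATP18, for subunit i/j, had the largest value in ect1Δ pct1Δ, 0.23 ± 0.09 (edgeR, Benjamini-Hochberg adjusted p = 0.568), from 468.8, 473.9 and 565.3 FPKM in WT to 573.1, 648.6 and 540.8. Its WT replicate 3 lay above the lowest ect1Δ pct1Δ library, so the groups overlapped. ATP19 (subunit k) was at 0.15 ± 0.08, ATP17 (subunit f) at 0.15 ± 0.06 and TIM11 (subunit e, the partner of subunit g) at 0.10 ± 0.08, and in cpt1Δ ept1Δ the 4 lay between 0.05 and 0.13, with ATP17 the highest. INH1, the main inhibitor of the enzyme, was at 0.15 ± 0.09 and 0.06 ± 0.09, and STF1, a related inhibitor, at 0.02 ± 0.15 and 0.03 ± 0.15.

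The 12 factors for assembly and for expression of the mitochondrial subunits were mixed. In ect1Δ pct1Δ 8 of 12 were positive (median 0.06) and in cpt1Δ ept1Δ 6 of 12 (median 0.01), beside 51.2% and 49.2% of all genes tested. ATP23, a processing protease for subunit a, was among the largest in cpt1Δ ept1Δ at 0.17 ± 0.10, and NCA3 and ATP22, which act on mitochondrial ATP synthase messages, were at -0.09 ± 0.10 and -0.05 ± 0.08. ATP10, an assembly factor, and ATP25, which stabilises the subunit c message, were at -0.15 ± 0.20 and -0.04 ± 0.08 in ect1Δ pct1Δ. Of the carriers that feed the enzyme, PET9, the main ADP/ATP carrier, was at 0.02 ± 0.05 in both strains, and MIR1, the phosphate carrier, at 0.07 ± 0.05 and 0.02 ± 0.05. The minor ADP/ATP carriers AAC1 and AAC3 were at 0.44 ± 0.14 and -0.23 ± 0.18 in ect1Δ pct1Δ, and deletion of CPT1 and EPT1 gave 0.32 ± 0.14 and -0.21 ± 0.18. The 3 carrier genes are similar in sequence, so their counts may be uncertain. None of these passed edgeR with Benjamini-Hochberg adjustment (adjusted p of 0.389 and above). Of the Hap genes and HAP1, a further activator of respiration, 4 of 5 were positive in ect1Δ pct1Δ (median 0.03). In cpt1Δ ept1Δ 3 of 5 were (median 0.14). Of all genes tested 51.2% and 49.2% lay above 0. HAP3 was at 0.36 ± 0.11 and 0.26 ± 0.11 in the strains, and HAP4, for the activating subunit, at 0.18 ± 0.11 and 0.31 ± 0.11. HAP2 was at 0.02 ± 0.12 and -0.12 ± 0.12, HAP5 at 0.03 ± 0.11 and 0.14 ± 0.11 and HAP1 at -0.02 ± 0.06 and -0.05 ± 0.06. By edgeR with Benjamini-Hochberg adjustment 0 of 5 passed in either strain (adjusted p of 0.357 and above), beside 0.46% and 0.132% of all genes tested. There were 1 and 2 at an unadjusted p below 0.05, beside 6.61% and 5.28%. DESeq2 and limma called 0 as well, with 1 each at an unadjusted p below 0.05 in the first strain and 1 and 2 in the second.

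The subunits made in mitochondria could not be followed in these poly(A)-selected libraries. ATP6 and OLI1, for subunits a and c, and ATP8 together had 0 to 5 counts in 8 libraries and 43 in cpt1Δ ept1Δ replicate 3, and ATP8 had 0 in all. The same library held 193 CPM of mitochondrial ribosomal RNA, where the others had 2.33 to 34.2. Without it the median log2 fold change of the 10 nuclear genes in cpt1Δ ept1Δ was 0.06 in place of 0.08.

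Outside the 10, the genes whose centred log2 CPM lay closest to their mean over the 9 libraries were PMP3, a small plasma membrane protein, UBC6, a ubiquitin-conjugating enzyme of the endoplasmic reticulum, LSC2, the β subunit of succinyl-CoA ligase, HTA1, a histone H2A gene, SDH3, a subunit of succinate dehydrogenase, and COX5A, a subunit of complex IV. The root mean square difference was 0.0282 for PMP3 and up to 0.0397 for COX5A on the log2 scale, beside a median of 0.125 over all other genes tested. The 10 themselves differed from the mean of the other 9 by 0.0326 (ATP7) to 0.106 (ATP20), so ATP20 followed the rest least closely. ATP14 (0.0751) and ATP15 (0.0615) came next. These genes also had the lowest mean CPM of the 10 in WT, 84.07 for ATP20, 100.8 for ATP14 and 118.9 for ATP15. Counting noise enters this measure, and its part was not tested. HTA1 has a near-identical copy, HTA2, so its counts are uncertain. All these values rest on the same 9 libraries.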

How the data were processed

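Polyadenylated RNA of 9 yeast libraries was sequenced, 3 per group, with groups taken from the sample titles. The authors deposited a table of raw counts and FPKM values per gene. HISAT2 2.2.1, HTSeq 0.6.1 and build R64 are named per the submitters' processing notes, and none of the sources used here gives the use of strand. The deposited FPKM values equal the count scaled by gene length and total count in 99.93% of 64098 values (within 0.0051 or a relative 0.002). In 4 lines the values had been removed, and 6 columns of 3 libraries headed PAH1, which match no sample given here, were not analysed here.

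Counts were tested with edgeR 4.0.16 (quasi-likelihood, TMM, filterByExpr) in R 4.3.3, in 1 fit of all 9 libraries without covariates, after a test on simulated data. Tests were two-sided, with Benjamini-Hochberg adjustment over 6083 genes and calls at an adjusted p below 0.05. The SE is the log2 fold change divided by the square root of F. CPM values are TMM-scaled. Alternatives used DESeq2 1.42.0, limma 3.58.1 on log2(FPKM + 1), other scalings, no filter, a replicate block and leaving out libraries. Replicate libraries differed by more than sampling noise (chi-square per gene of 2.32 to 9.16). Of the table's gene identifiers 84.88% were found in RefSeq R64, 99.8% of these with the same start and end. No member had another match in the genome by blastn.

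The members, lists and motifs were chosen with earlier results of these data known. Named genes are the 10 members, the 4 deleted genes, from the list of other ATP synthase genes those called and the 3 largest changes each way against WT, and the 6 genes closest in profile. The other subunits, inhibitors, main carriers, Hap genes, markers, overlapping genes, PAH1 and DGK1 were named in addition, after their values were seen.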

Additional observations from a re-analysis of the deposited data

Results flagged for a closer look

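STF2 differed between the deletion strains by the direct test, with a log2 fold change of -0.72 ± 0.08 in cpt1Δ ept1Δ against ect1Δ pct1Δ (edgeR, Benjamini-Hochberg adjusted p = 6.05e-05) and no overlap of the 3 libraries of each strain. It is the neighbour of the deleted ECT1, and the difference held in all 17 alternatives tried (-0.78 to -0.67, adjusted p up to 0.00128).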

How the results depend on the processing

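Over 17 alternatives the median log2 fold change of the 10 genes in ect1Δ pct1Δ against WT was 0.14 to 0.17, in cpt1Δ ept1Δ against WT 0.06 to 0.10, and all 10 values were positive in both under every alternative; in cpt1Δ ept1Δ against ect1Δ pct1Δ it was -0.09 to -0.05. The median over all genes ran from -0.011 to 0.012 over the alternatives and comparisons, with both ends from limma.

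Called members in ect1Δ pct1Δ against WT numbered 0 to 1 when single libraries were left out and 1 without both libraries that stand apart, ATP20 each time (0.37 on the log2 scale without both). Members at an unadjusted p below 0.05 numbered 5 to 8 when single libraries were left out, 5 without WT replicate 1, and all called genes 17 to 40 in place of 28. In cpt1Δ ept1Δ against WT members at an unadjusted p below 0.05 numbered 0 to 2 when single libraries were left out, 1 with upper quartile scaling and 0 with DESeq2, in place of 2. All called genes numbered 4 to 9 when single libraries were left out, 15 with DESeq2 and 16 without both libraries that stand apart, in place of 8. In cpt1Δ ept1Δ against ect1Δ pct1Δ members above 0 numbered 0 to 2 when single libraries were left out and 2 without both that stand apart, in place of 0. These were ATP4 and ATP15, at 0.008 and 0.024 without ect1Δ pct1Δ replicate 2 and again without both, and ATP15 at 0.003 without cpt1Δ ept1Δ replicate 2. Leaving out single libraries gave -0.059 to 0.008 for ATP4 and -0.086 to 0.024 for ATP15. Members at an unadjusted p below 0.05 numbered 0 to 1 when single libraries were left out and 2 with limma, and all called genes 10 to 13 and 23 without both that stand apart, in place of 12. The cause of these moves was not tested.

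Replicate numbers shared by the groups did not pair the libraries. Deviations of same-numbered libraries correlated across genes with r of -0.268 to 0.264, over 0.1 in 1 of 9 pairs. Of 9 libraries, 0 correlated best with their own number in both other groups. The highest r between libraries of different groups was 0.364, for WT replicate 3 and ect1Δ pct1Δ replicate 2, the libraries that stand apart. What these share was not tested. With the replicate block the medians were 0.16, 0.08 and -0.07, members at an unadjusted p below 0.05 in cpt1Δ ept1Δ numbered 1 in place of 2, and 0 members were called in any comparison.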
